A study of Rattus norvegicus with 12 samples.

Results

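The circadian clock genes described here were Clock, Per1, Per2, Per3, Cry1, Cry2, Nr1d1, Nr1d2, Dbp and Tef, taken by gene symbol from the count table of a rat heart failure study. They were 10 of the 30560 genes in that table, and all 10 passed the filter of at least 10 reads in total over the libraries, as did 18182 genes altogether. RNA was taken from heart sections that had been formalin-fixed and paraffin-embedded, from 12 male Wistar rats with 1 library per rat. The Sham group (rats 12, 17, 32 and 38) had the chest opened without ligation and received vehicle, 0.5% carboxymethylcellulose. The MI group (rats 36, 57, 61 and 89) had a myocardial infarction made by permanent ligation of the left anterior descending coronary artery and received the same vehicle. The MI + UA group (rats 29, 58, 64 and 66) had the same ligation and received urolithin A (UA), a gut microbial metabolite known as an inducer of mitophagy. It was given by daily gavage at 50 mg/ml, the concentration stated in the methods of the study. The results of the study instead state a dose per body weight and a later start of dosing. Surgery was at 7 weeks of age and dosing lasted 8 weeks. All hearts were taken from fasted rats on the day after the last dose, and no hour of collection was found for any heart in the sources used here. Rat 66 carries the UA label but stands among vehicle-treated MI rats in a supplementary table of the study, and was kept as labelled.

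The circadian clock is a feedback loop of transcription that runs in nearly every cell, heart muscle included. The CLOCK protein pairs with BMAL1 (gene Arntl) on E-box sequences and switches on its own repressors, the Period and Cryptochrome genes, while REV-ERB alpha and beta (Nr1d1 and Nr1d2) repress Arntl in a second loop. Dbp and Tef encode PAR bZIP factors that pass the rhythm on to output genes through D-box sequences. In heart, transcripts such as Dbp and Nr1d1 are known for large swings over the day, with Arntl and Npas2 swinging in the opposite sense, so the level in 1 heart depends on the hour at which it was taken. Per1, and to a lesser degree Per2, also answer quickly to glucocorticoids and stress.

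Each library held between 6228706 and 19031695 reads on genes, of which 13 mitochondrially encoded genes took 50.2% to 58.6%. Of all counted reads, the share on genes was 46.9% to 48.3% in Sham, 43.3% to 44.8% in MI and 42.9% to 47.2% in MI + UA. The cardiomyocyte markers (7 of the 8 listed genes were found, none at 0 in any heart) marked the tissue as heart muscle. Levels are given in CPM, reads per gene relative to the library size, with library sizes scaled by TMM factors. The summed level of these markers was 18046 to 21175 CPM in Sham, 12858 to 13545 in MI and 13389 to 16218 in MI + UA. The 8 fibroblast markers summed to 1186 to 1489 CPM in Sham, 2313 to 4013 in MI and 2379 to 4123 in MI + UA. The 8 macrophage markers summed to 86.7 to 101 CPM in Sham, 153 to 204 in MI and 138 to 215 in MI + UA, the 6 endothelial markers to 592 to 652, 478 to 573 and 462 to 543, and the 4 smooth muscle markers to 92.7 to 123, 110 to 223 and 107 to 161. In MI versus Sham, 6 of 7 cardiomyocyte genes fell, 7 of 8 fibroblast, 7 of 8 macrophage and 3 of 4 smooth muscle genes rose, and 1 of 6 endothelial genes fell (edgeR, adjusted p under 0.05), against 5.53% of all tested genes that fell and 5.82% that rose. In sections of whole tissue, fewer cells of a type and less RNA per cell cannot be told apart, and the part of these markers in the group differences of the clock genes was not tested.

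Dbp and Nr1d1 differed most between hearts and moved together, whereas Per1 varied nearly as much without following them. Promoter sequences of these genes are shown, as set for the case that no clock gene passed in MI versus Sham. They are RefSeq windows of the GRCr8 assembly, from 250 bases before to 50 bases after a transcription start, printed 5′ to 3′ on the strand of the gene. Capitals mark a match to the E-box CACGTG or its variant CACGTT on either strand. The windows are chr1:105312006-105312305 (plus strand) for Dbp, chr10:84231763-84232062 and chr10:84229405-84229704 (both minus strand) for the annotated starts of Nr1d1, and chr10:54304126-54304425 (plus strand) for Per1.
Dbp: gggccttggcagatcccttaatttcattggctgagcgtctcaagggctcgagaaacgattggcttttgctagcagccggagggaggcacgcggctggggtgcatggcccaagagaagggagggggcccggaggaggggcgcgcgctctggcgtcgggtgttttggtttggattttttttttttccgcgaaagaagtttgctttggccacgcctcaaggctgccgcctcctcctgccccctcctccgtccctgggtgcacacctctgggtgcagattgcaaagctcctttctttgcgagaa
Nr1d1, first window: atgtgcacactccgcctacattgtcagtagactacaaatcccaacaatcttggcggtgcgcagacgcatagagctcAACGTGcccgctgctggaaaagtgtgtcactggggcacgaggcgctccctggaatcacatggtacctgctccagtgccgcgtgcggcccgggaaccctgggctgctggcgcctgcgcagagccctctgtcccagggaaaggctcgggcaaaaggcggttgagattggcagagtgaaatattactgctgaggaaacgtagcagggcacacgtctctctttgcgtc
Nr1d1, second window: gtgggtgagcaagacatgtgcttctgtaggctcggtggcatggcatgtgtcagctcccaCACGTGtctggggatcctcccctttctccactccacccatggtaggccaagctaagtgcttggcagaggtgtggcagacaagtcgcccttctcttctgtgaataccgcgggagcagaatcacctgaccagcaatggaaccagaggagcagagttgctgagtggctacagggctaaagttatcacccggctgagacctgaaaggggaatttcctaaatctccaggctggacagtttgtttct
Per1: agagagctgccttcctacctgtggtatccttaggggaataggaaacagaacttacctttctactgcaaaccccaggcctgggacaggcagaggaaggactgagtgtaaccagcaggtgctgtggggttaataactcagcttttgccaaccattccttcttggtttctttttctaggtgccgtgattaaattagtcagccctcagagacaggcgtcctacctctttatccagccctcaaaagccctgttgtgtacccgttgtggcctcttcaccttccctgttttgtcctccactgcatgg

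The second Nr1d1 window held CACGTG with its first base at position -191 from the start, and the first held the variant, read as AACGTG, at -174. Neither motif occurred in the windows of Dbp or Per1. RefSeq windows were found for 9 of the 10 clock genes, in 11 windows, with none for Cry1. The E-box was present in 2 of the 11 windows (Nr1d1 and Tef, the latter at -198), against 6.42% of all 33469 promoter windows. The variant was present in 3 of the 11 (Per2 at -62, Cry2 at -212 and Nr1d1), against 4.83% of all windows. The D-box, searched as TTATGTAA or TTACGTAA, was present in 1 window, that of Per2 (at -192), against 1.01%, and the ROR core motif AGGTCA in 1, that of Nr1d2 (at -187), against 16.2%. No 2 of these matches overlapped, and both strands were searched for each motif. A match is a description of letters in a short window and does not show a bound site.

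None of the 10 clock genes changed between groups at an adjusted p under 0.05 in the 3 comparisons. In MI versus Sham, 0 of 10 passed edgeR's quasi-likelihood test and 0 passed DESeq2, against 11.4% of all tested genes in edgeR (5.82% higher and 5.53% lower in MI). An unadjusted p under 0.05 was reached by 4 of them (Per2, Nr1d1, Dbp and Tef), against 23.9% of all tested genes. The values of the groups were free of overlap for 0 of the 10 clock genes, against 15.7% of all tested genes. The median log2 fold change of the clock genes was -0.19, beside 0.026 over all tested genes. Higher values in MI were found for 4 of them and lower values for 6.

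Between MI + UA and MI, 0 of 10 clock genes and 0 of all 18182 genes, or 0%, passed the adjusted threshold in edgeR. The unadjusted p was under 0.05 for 0 of 10 clock genes, against 3.79% of all tested genes, and 0 of 10 were free of overlap, against 2.34%. DESeq2 also called 0 clock genes in this comparison. The median log2 fold change of the clock genes was 0.030, beside 0.0047 over all tested genes. The comparison of MI + UA with Sham uses the same Sham rats as MI versus Sham. There 0 of 10 passed in edgeR and 0 in DESeq2, against 9.44% of all tested genes in edgeR (5.16% higher and 4.27% lower). The unadjusted p was under 0.05 for 4 clock genes (Per2, Cry2, Nr1d1 and Dbp), against 21.8% of all tested genes. Only Cry2 had groups free of overlap there, 1 of 10 against 14.3% of all tested genes.

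**Figure D1:**
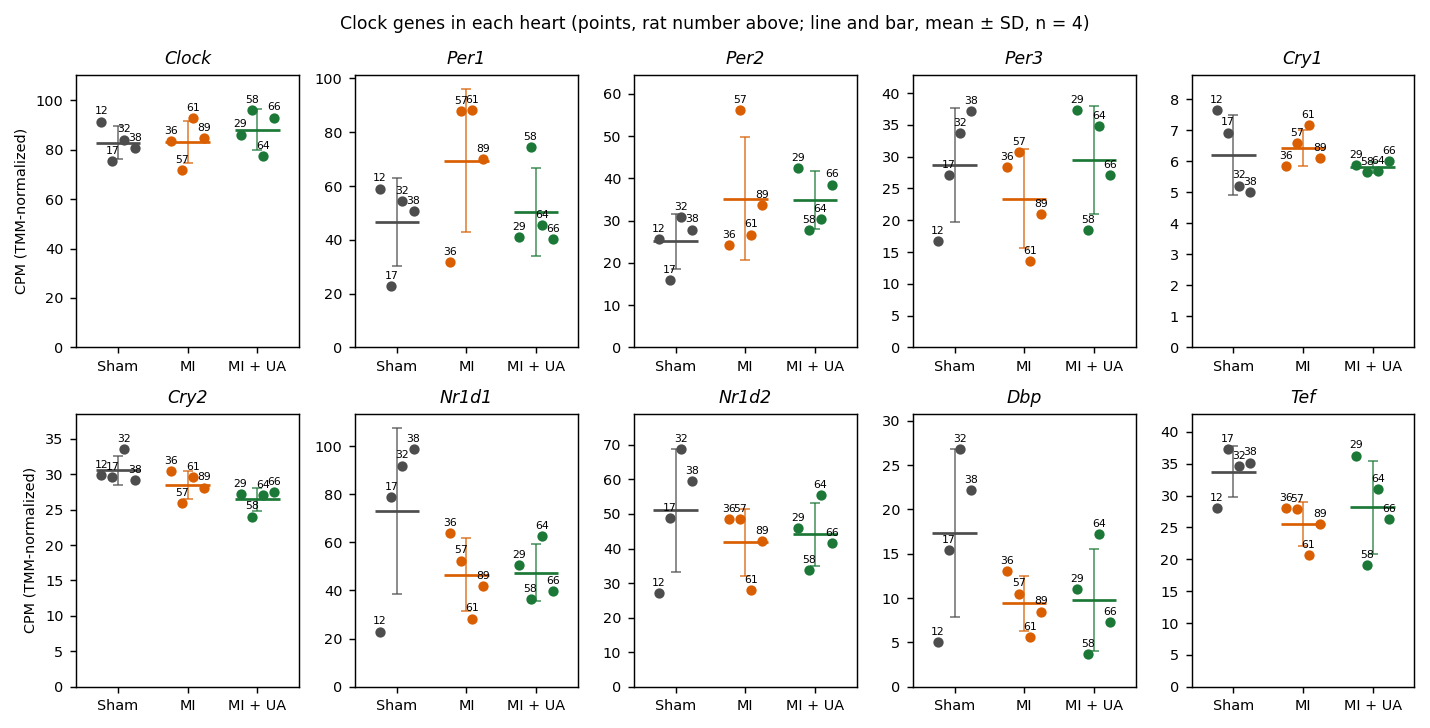
Level of each clock gene in each heart, in CPM scaled by TMM factors on axes that start at 0, with 1 point per rat and the mean ± SD of each group (n = 4). Rat 12 lay far below the other Sham hearts for Nr1d1 (23.0 CPM against 78.9 to 98.6), and the groups overlapped in every panel except Sham against MI + UA for Cry2.

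Dbp (ENSRNOG00000021027), the output factor named for the albumin D-box, had the widest spread of the clock genes. Its levels in rats 12, 17, 32 and 38 of the Sham group were 5.02, 15.4, 26.8 and 22.2 CPM. In rats 36, 57, 61 and 89 of the MI group they were 13.0, 10.5, 5.605 and 8.47 CPM, and in rats 29, 58, 64 and 66 of the MI + UA group 11.03, 3.72, 17.2 and 7.26 CPM. All 4 MI hearts lay below 3 of the Sham hearts, but rat 12 was lower than every MI heart, so the groups overlapped. Mean CPM ± SD (n = 4 each) was 17.4 ± 9.45 for Sham, 9.40 ± 3.14 for MI and 9.80 ± 5.76 for MI + UA. The log2 fold change in MI versus Sham was -0.86 (standard error 0.38, edgeR adjusted p = 0.170). It was -0.20 with an index of phase as a covariate (standard error 0.32), and with the share of counted reads on genes as a covariate it turned to 0.95 (standard error 0.52, edgeR adjusted p = 0.466), a share that did not overlap between Sham and MI and so cannot be told apart from that comparison. In MI + UA versus Sham it was -0.83 (standard error 0.38, edgeR adjusted p = 0.203), and in MI + UA versus MI it was 0.034 (standard error 0.39, adjusted p = 1.00). Counts behind these levels ranged from 29 to 193 reads, so Dbp is also among the more thinly sampled of the clock genes.

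Nr1d1 (ENSRNOG00000009329), which encodes the repressor REV-ERB alpha, followed the same order of hearts in Sham and MI apart from rats 32 and 38. Rats 12, 17, 32 and 38 of the Sham group stood at 23.0, 78.9, 91.9 and 98.6 CPM. Rats 36, 57, 61 and 89 of the MI group stood at 63.9, 52.4, 28.3 and 41.7 CPM, and rats 29, 58, 64 and 66 of the MI + UA group at 50.7, 36.3, 62.7 and 39.8 CPM. For Nr1d1, 3 Sham hearts lay above every infarcted heart, treated or not, while rat 12 lay below them all. The log2 fold change was -0.64 in MI versus Sham (standard error 0.30, edgeR adjusted p = 0.185) and -0.63 in MI + UA versus Sham (standard error 0.29, edgeR adjusted p = 0.216). Between MI + UA and MI it was 0.018 (standard error 0.29).

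Leaving out rat 12, the lowest Sham heart for both genes, brought them past the threshold. Without any other single rat neither gene passed in MI versus Sham or in MI + UA versus Sham. Leaving out the lowest heart of a group narrows the spread of the genes tested. Without rat 12, Dbp was lower in MI than in Sham with -1.18 as log2 fold change (edgeR adjusted p = 0.0263) and Nr1d1 by -0.95 (edgeR adjusted p = 0.00517). Without rat 12 the MI + UA versus Sham values were -1.15 for Dbp (edgeR adjusted p = 0.0346) and -0.93 for Nr1d1 (edgeR adjusted p = 0.00730). Rat 12 also had the lowest share of counted reads on genes of the Sham group (46.9%, the other Sham rats 47.6% to 48.3%). With that share as a covariate and all hearts kept, the log2 fold change of Nr1d1 in MI versus Sham was 0.18 (standard error 0.42, edgeR adjusted p = 0.910). With all hearts kept, Dbp and Nr1d1 also passed in MI versus Sham when genes with at least 1 read were tested, with adjusted p-values of 0.0440 and 0.0471.

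Nr1d2 (ENSRNOG00000046912), which encodes the partner repressor REV-ERB beta, moved less. Its levels were 27.1, 48.8, 68.7 and 59.5 CPM in rats 12, 17, 32 and 38 of the Sham group. They were 48.5, 48.6, 28.0 and 42.1 CPM in MI rats 36, 57, 61 and 89, and 45.9, 33.6, 55.4 and 41.5 CPM in MI + UA rats 29, 58, 64 and 66. The lowest heart of each group was again rat 12, rat 61 or rat 58, as for Dbp, and the groups overlapped throughout. The log2 fold change in MI versus Sham was -0.28 (standard error 0.21, edgeR adjusted p = 0.459). It was 0.076 in MI + UA versus MI (standard error 0.21) and -0.21 in MI + UA versus Sham (standard error 0.21). The direction of Nr1d2 in MI versus Sham turned with an index of phase as a covariate, and also with the share of counted reads on genes, without passing.

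Tef (ENSRNOG00000019383), the second PAR bZIP factor, came nearest to the threshold. Sham rats 12, 17, 32 and 38 had 28.0, 37.2, 34.7 and 35.2 CPM. MI rats 36, 57, 61 and 89 had 28.1, 27.9, 20.7 and 25.5 CPM, and MI + UA rats 29, 58, 64 and 66 had 36.3, 19.1, 31.0 and 26.3 CPM. MI and Sham overlapped by the single pair of rats 36 and 12. Mean CPM ± SD (n = 4 each) was 33.8 ± 4.02 for Sham, 25.5 ± 3.46 for MI and 28.2 ± 7.28 for MI + UA, where rat 29 lay above the Sham mean and rat 58 below every MI heart. The log2 fold change was -0.40 in MI versus Sham (standard error 0.15, edgeR adjusted p = 0.0998), 0.15 in MI + UA versus MI (standard error 0.15) and -0.25 in MI + UA versus Sham (standard error 0.15, edgeR adjusted p = 0.362). In MI versus Sham, Tef passed when only these 2 groups were fitted (log2 fold change -0.42, edgeR adjusted p = 0.0240). It also passed when genes with at least 1 read were kept (edgeR adjusted p = 0.0455). With an index of phase as a covariate the fall was smaller, and with the share of counted reads on genes as a covariate the direction turned. Neither of these passed, and that share did not overlap between Sham and MI.

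**Figure D2:**
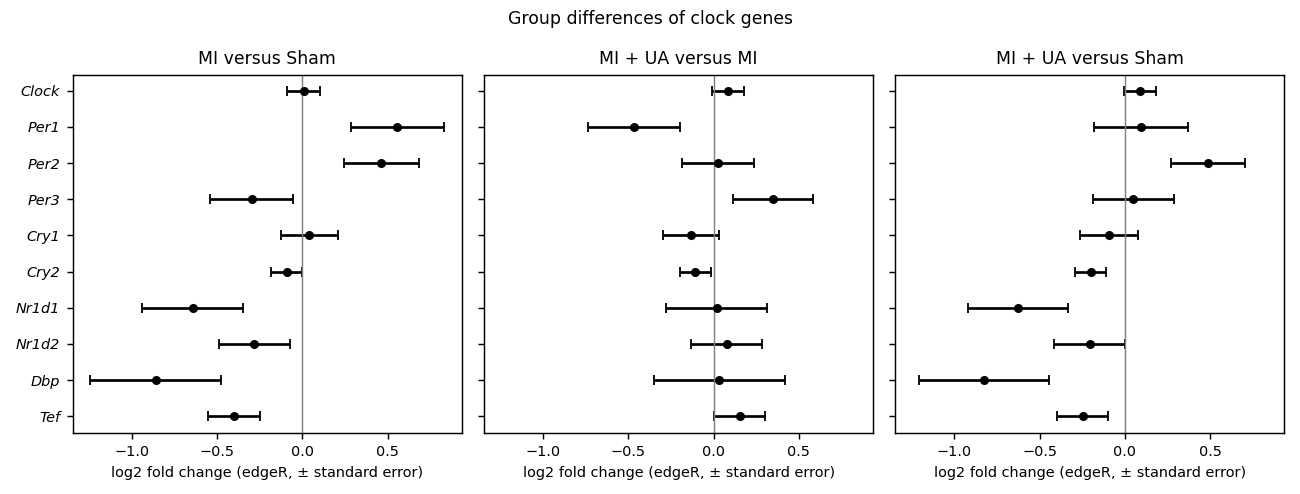
Log2 fold change of each clock gene in the 3 comparisons (edgeR, points with standard errors on a shared axis). In MI versus Sham the values ran from -0.86 for Dbp to 0.56 for Per1, and in MI + UA versus MI from -0.47 for Per1 to 0.35 for Per3, none with an adjusted p under 0.05.

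The Period genes, whose proteins repress CLOCK and BMAL1, did not move as a group. Per1 (ENSRNOG00000007387) had 59.1, 22.8, 54.4 and 50.7 CPM in Sham rats 12, 17, 32 and 38. It had 31.7, 87.8, 88.2 and 70.1 CPM in MI rats 36, 57, 61 and 89, and 41.1, 74.6, 45.5 and 40.3 CPM in MI + UA rats 29, 58, 64 and 66. Thus 3 MI hearts lay above every Sham heart, and rat 36 lay below 3 of them. The log2 fold change was 0.56 in MI versus Sham (standard error 0.28, edgeR adjusted p = 0.225), -0.47 in MI + UA versus MI (standard error 0.27) and 0.093 in MI + UA versus Sham (standard error 0.28). Without rat 36, the lowest MI heart for this gene, Per1 was higher in MI than in Sham by 0.81 (edgeR adjusted p = 0.0275). Without any other single rat of these groups it did not pass. With the share of counted reads on genes as a covariate, its direction in MI versus Sham turned, without passing.

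Per2 (ENSRNOG00000020254) had 25.6, 16.02, 30.8 and 27.9 CPM in Sham rats 12, 17, 32 and 38. It had 24.3, 56.1, 26.7 and 33.7 CPM in MI rats 36, 57, 61 and 89, and 42.5, 27.7, 30.5 and 38.5 CPM in MI + UA rats 29, 58, 64 and 66. The MI mean of 35.2 ± 14.5 CPM (SD, n = 4) was carried by rat 57. Against Sham, the log2 fold change was 0.46 in MI (standard error 0.22, edgeR adjusted p = 0.203) and 0.49 in MI + UA (standard error 0.22, edgeR adjusted p = 0.183). Without rat 57 the value in MI versus Sham was 0.17. Per3 (ENSRNOG00000018413), which has a supporting role in the loop, had 16.7, 27.1, 33.7 and 37.2 CPM in Sham rats 12, 17, 32 and 38. It had 28.4, 30.7, 13.6 and 20.9 CPM in MI rats 36, 57, 61 and 89, and 37.3, 18.5, 34.8 and 27.1 CPM in MI + UA rats 29, 58, 64 and 66. The lowest Per3 value of each group belonged to rat 12, 61 or 58, as for Dbp and Nr1d2. Its log2 fold change was -0.30 in MI versus Sham (standard error 0.24, edgeR adjusted p = 0.505). It was 0.35 in MI + UA versus MI (standard error 0.24) and 0.049 in MI + UA versus Sham (standard error 0.24). The direction of Per3 in MI versus Sham turned with an index of phase as a covariate, and also with the share of counted reads on genes, without passing.

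Clock, Cry1 and Cry2 were steady between hearts. Clock (ENSRNOG00000002175), the activator that pairs with BMAL1, ranged from 75.3 to 91.3 CPM in Sham, from 71.7 to 92.6 CPM in MI and from 77.4 to 95.9 CPM in MI + UA, with a log2 fold change of 0.0061 in MI versus Sham (standard error 0.094). The Cryptochromes are the stronger repressors of the loop. Cry1 (ENSRNOG00000006622) ranged from 5.01 to 7.65 CPM in Sham, from 5.85 to 7.16 CPM in MI and from 5.65 to 6.02 CPM in MI + UA, on 31 to 107 reads, with log2 fold changes of 0.041 (MI versus Sham, standard error 0.17) and -0.13 (MI + UA versus MI, standard error 0.16). Cry2 (ENSRNOG00000007478) was 29.9, 29.6, 33.5 and 29.2 CPM in Sham rats 12, 17, 32 and 38, 30.4, 25.9, 29.6 and 28.1 CPM in MI rats 36, 57, 61 and 89, and 27.2, 24.0, 27.1 and 27.5 CPM in MI + UA rats 29, 58, 64 and 66. Every MI + UA heart lay below every Sham heart, but the difference was small (log2 fold change -0.20, standard error 0.092, edgeR adjusted p = 0.204), and the MI hearts lay across both ranges.

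How far hearts of the same group differed set the clock genes apart from one another. The SD of log2 CPM within groups, pooled over the 3 groups with 9 degrees of freedom, was 0.87 for Dbp, 0.67 for Nr1d1, 0.59 for Per1, 0.50 for Per3, 0.44 for Nr1d2 and 0.43 for Per2. It was 0.28 for Tef, 0.19 for Cry1, 0.14 for Clock and 0.095 for Cry2. The median over the 11986 genes with an average log2 CPM of at least 1 was 0.21, so 7 of the clock genes varied more between like hearts than the typical gene at such levels, and Clock, Cry1 and Cry2 less. Between the lowest and the highest of the 12 hearts, Dbp differed 7.19-fold, Nr1d1 4.29-fold, Per1 3.87-fold and Per2 3.504-fold, whereas Clock differed 1.34-fold and Cry2 1.39-fold. The biological coefficient of variation (BCV) that edgeR estimates was 2.77 times the trend for genes of the same abundance for Dbp, 2.68 times for Nr1d1, 2.48 times for Per1 and 2.05 times for Per3. Among all tested genes these ratios lay at percentiles 99.7, 99.7, 99.6 and 99.0. Nr1d2 (1.89 times) and Per2 (1.87 times) lay at percentiles 98.5 and 98.4. Tef lay at 1.29 times the trend and percentile 89.2, Clock at 0.90 times, Cry2 at 0.74 times and Cry1 at 0.73 times. These are descriptions, and no test was made of them.

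**Figure D3:**
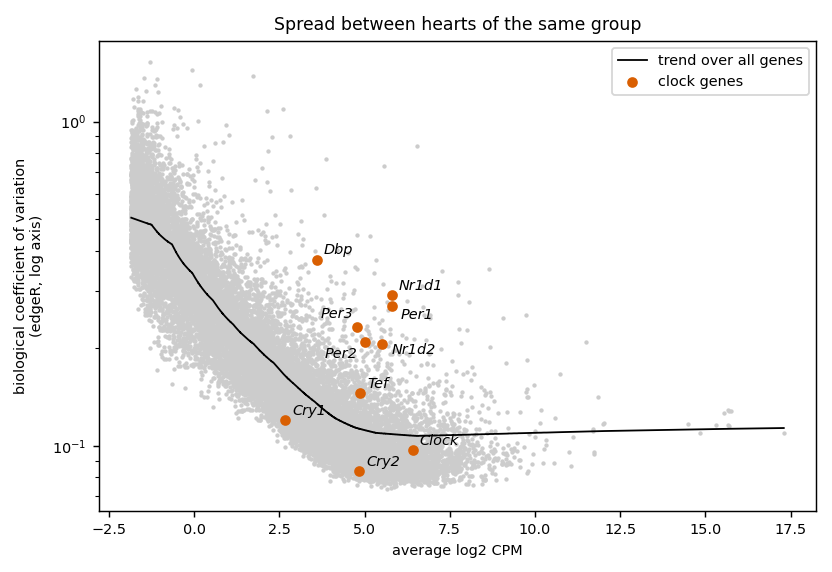
BCV of every tested gene (grey, log axis) against its average log2 CPM, with edgeR's trend as a line and the 10 clock genes in orange. Dbp, Nr1d1, Per1, Per3, Nr1d2 and Per2 stand well above the trend, at 1.87 to 2.77 times its value, and Cry1, Cry2 and Clock stand below it.

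The same hearts were high or low in several of these genes. After the group mean was subtracted from each log2 CPM, so that differences between groups took no part, Nr1d2, Nr1d1, Per3 and Tef followed Dbp over the 12 hearts, and Clock went the other way. For Nr1d2, Pearson's r was 0.952 (permutation p = 0.00013, adjusted over the 9 genes 0.00072) and Spearman's rho 0.958 (permutation p = 0.00026, adjusted 0.00117). For Nr1d1, r was 0.916 (permutation p = 0.00016, adjusted 0.00072) and rho 0.916 (permutation p = 0.00016, adjusted 0.00117). For Per3, r was 0.906 (permutation p = 0.00066, adjusted 0.00198) and rho 0.762 (permutation p = 0.00696, adjusted 0.0209). Leaving out the hearts farthest from the median level of Dbp, rats 58 and 32, gave r of 0.961 for Nr1d2, 0.976 for Nr1d1 and 0.882 for Per3. Leaving out those farthest once group means were subtracted, rats 12 and 58, a choice added after the values had been seen, gave 0.922, 0.924 and 0.803 (permutation p adjusted over 9 genes 0.0110, 0.0110 and 0.0326).

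Tef gave r = 0.805 with Dbp (permutation p = 0.00621, adjusted 0.0140) and rho 0.741 (permutation p = 0.0204, adjusted 0.0368). Clock gave r = -0.699 (permutation p = 0.0194, adjusted 0.0291) and rho -0.727 (permutation p = 0.0150, adjusted 0.0337). Without rats 58 and 32 the values were 0.772 for Tef and -0.755 for Clock, both with an adjusted p of 0.0572 over the 10 hearts left. Without rats 12 and 58 they were 0.602 for Tef and -0.536 for Clock (adjusted 0.299 for both). Cry1, whose peak in other tissues falls late in the cycle, gave r = -0.672 (permutation p = 0.0179, adjusted 0.0291), but its rho of -0.629 did not pass (permutation p = 0.0586, adjusted 0.0879). Per1 (r = -0.416, permutation p = 0.206, adjusted 0.256, rho -0.406, permutation p = 0.217, adjusted 0.279), Cry2 (r = 0.410, permutation p = 0.228, adjusted 0.256, rho 0.308, permutation p = 0.382, adjusted 0.430) and Per2 (r = 0.196, permutation p = 0.543, adjusted 0.543, rho 0.266, permutation p = 0.438, adjusted 0.438) showed no relation with Dbp that passed. Without rats 58 and 32 the r of Cry2 became -0.175 and that of Per2 -0.089.

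Rats 12, 61 and 58 had the lowest Dbp of their groups, at 1.53, 0.67 and 1.17 log2 units below the group mean, and also the lowest Nr1d1, Nr1d2, Per3 and Tef of their groups. They were the hearts with the lowest share of counted reads on genes in their groups, 46.9%, 43.3% and 42.9%. Over the 12 hearts, group means subtracted, Dbp went with this share at r = 0.743 (permutation p = 0.00395, adjusted over 8 library and marker measures 0.0316) and rho 0.580 (permutation p = 0.0527, adjusted 0.211), at r = 0.838 without rats 58 and 32, and at r = 0.640 without rats 12 and 58. The other clock genes that were low in these hearts also went with the share, at r = 0.867 for Tef, 0.752 for Per3, 0.624 for Nr1d2 and 0.514 for Nr1d1 (permutation p adjusted over the 10 clock genes 0.0155 for each), while rho passed for none of them (adjusted 0.126 to 0.186). Without the hearts farthest from the median share, rats 58 and 61, these r values were 0.542, 0.756, 0.771 and 0.819. Dbp went with none of the other 7 measures at an adjusted p under 0.05, among them the number of reads on genes (r = -0.010, permutation p = 0.979, adjusted 0.979) and the summed cardiomyocyte markers (r = 0.386, permutation p = 0.339, adjusted 0.904). With the share of reads on genes regressed out of both genes, r with Dbp was 0.933 for Nr1d2, 0.930 for Nr1d1 and 0.788 for Per3 (permutation p adjusted over 9 genes 0.0070, 0.0058 and 0.0140). It fell to 0.482 for Tef and -0.481 for Clock (adjusted 0.215 for both). Over the 9 hearts without rats 12, 61 and 58, r was 0.938 for Nr1d2 and 0.913 for Nr1d1 (permutation p adjusted 0.0623 for both), 0.706 for Per3 (adjusted 0.176), 0.353 for Tef and -0.328 for Clock (adjusted 0.758 for both). Without these hearts the r of Nr1d1 and Nr1d2 with Dbp was about as large, and that of Tef and Clock was smaller in size. None of these passed in the smaller sample. The hearts left out also had the lowest Dbp of their groups, which narrows its range. What part the share has in these relations was not tested.

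**Figure D4:**
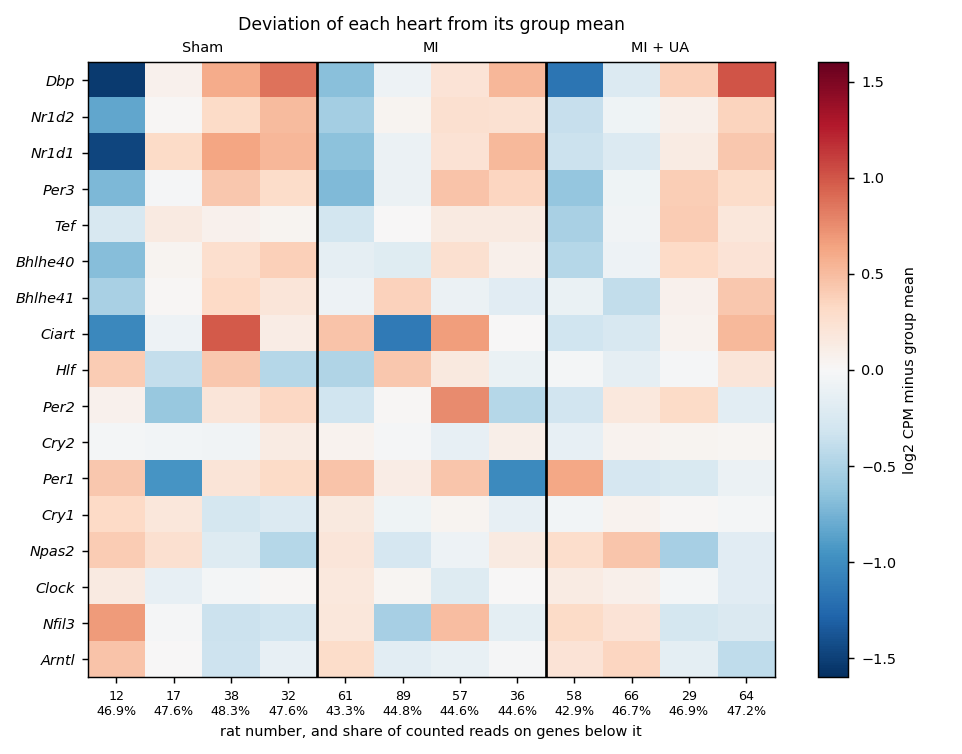
Deviation of each heart from its group mean (log2 CPM, blue below and red above) for the clock genes and 7 further genes of the loop, with hearts ordered by Dbp within each group and the share of counted reads on genes under each rat number. Dbp, Nr1d2, Nr1d1, Per3 and Tef are each lowest in rats 12, 61 and 58 of their groups, where Arntl is above its group mean.

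Genes of the loop outside the 10 were examined from a list of 19, of which 18 were in the table and 16 passed the filter. Their relations with Dbp were chosen after values of the hearts had been seen. Bhlhe40, which encodes a repressor of E-box genes, gave r = 0.932 with Dbp over the 12 hearts, group means subtracted (permutation p = 0.00167, adjusted over 16 genes 0.0267), and rho 0.860 (permutation p = 0.00473, adjusted 0.0757). Arntl, the partner of Clock, gave r = -0.858 (permutation p = 0.00509, adjusted 0.0407) and rho -0.811 (permutation p = 0.0115, adjusted 0.0917), and rats 12, 61 and 58 were all above their group means for it. Without rats 58 and 32, r was 0.887 for Bhlhe40 and -0.898 for Arntl, and without rats 12 and 58 it was 0.743 and -0.798. The other 14 did not pass, among them Nfil3 (r = -0.716, permutation p = 0.0216, adjusted 0.115), Npas2 (r = -0.688, permutation p = 0.0493, adjusted 0.164), Bhlhe41 (r = 0.678, permutation p = 0.0511, adjusted 0.164), Ciart (r = 0.576, permutation p = 0.0728, adjusted 0.170), Rora (r = 0.307, permutation p = 0.457, adjusted 0.664) and Hlf (r = -0.088, permutation p = 0.884, adjusted 0.884). Hlf encodes the third PAR bZIP factor, and unlike Tef it did not follow Dbp.

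**Figure D5:**
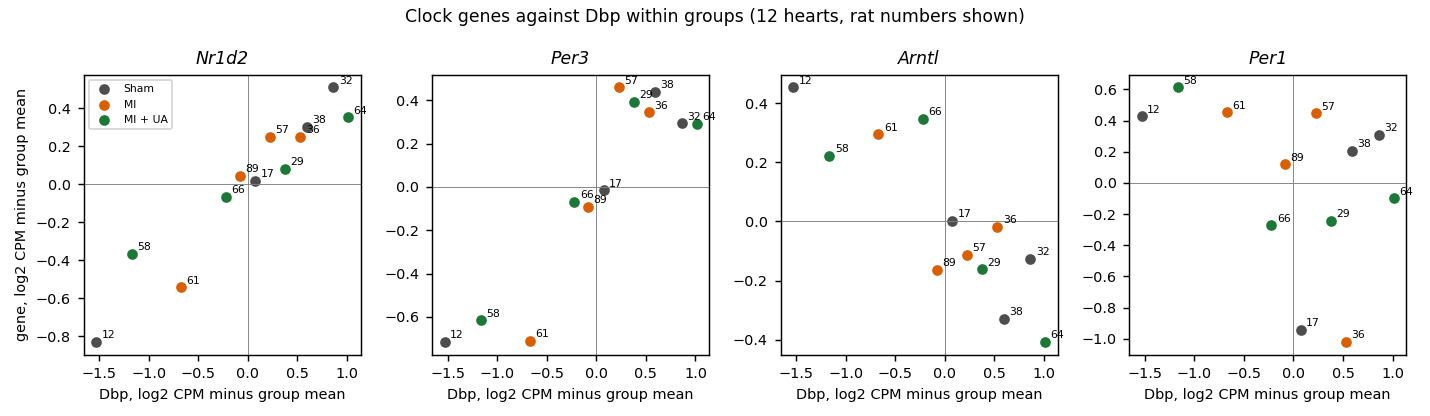
Nr1d2, Per3, Arntl and Per1 against Dbp, each as log2 CPM minus the group mean, for the 12 hearts (rat numbers beside the points). Nr1d2 (r = 0.952) and Per3 (r = 0.906) rise with Dbp, Arntl falls (r = -0.858), and Per1 shows no relation that passed (r = -0.416), with rats 17 and 36 lowest.

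Among 10873 named genes with an average log2 CPM of at least 1, ranked by r with Dbp as a description, Nr1d2 stood second, Nr1d1 at rank 9, Per3 at rank 13 and Tef at rank 91. Clock stood at rank 10686 and Cry1 at rank 10622, near the negative end, while Cry2 (1939), Per2 (3876) and Per1 (9438) lay between. The highest values were those of Slc12a7 (0.959), Nr1d2 (0.952), Sema4c (0.941), Ptpn1 (0.936) and Dcaf11 (0.936). The lowest were those of Shld1 (-0.924), Arid5b (-0.918), Tox (-0.912), Zfp386 (-0.882) and Rsbn1 (-0.877). All of these points share the same 12 libraries, and no p-value is given for a ranking.

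Whether the group differences held at equal phase was examined with an index made of genes outside the 10, the mean log2 CPM of Npas2 and Arntl minus that of Hlf and Ciart. Arntl went against Dbp in these hearts (r = -0.858), and Npas2 (r = -0.688) and Ciart (r = 0.576) did not pass, so a value with the index as a covariate may be partly adjusted for Dbp itself. The index (mean ± SD, n = 4 each) was 3.22 ± 0.74 for Sham, 3.75 ± 0.34 for MI and 3.19 ± 0.60 for MI + UA. With the index as a covariate, the log2 fold change in MI versus Sham was -0.20 for Dbp (standard error 0.32), -0.18 for Nr1d1 (standard error 0.26), 0.023 for Nr1d2 (standard error 0.18), 0.074 for Per3 (standard error 0.19) and -0.25 for Tef (standard error 0.15), each nearer to 0 than without it. It stayed at 0.56 for Per1 (standard error 0.31) and became 0.62 for Per2 (standard error 0.22, edgeR adjusted p = 0.0926). The mean index hardly differed between MI + UA and Sham, and there Dbp stayed at -0.82 (standard error 0.29, edgeR adjusted p = 0.0822) and Nr1d1 at -0.58 (standard error 0.23, edgeR adjusted p = 0.142). Dbp in MI + UA versus MI became -0.62 (standard error 0.33) and Nr1d1 -0.40 (standard error 0.26), with 0 clock genes called. Ciart lay at only 0.24 to 1.31 CPM, and Hlf did not follow Dbp, so a second index was added after the values had been seen, with Bhlhe40 and Bhlhe41 in their place. Bhlhe40 followed Dbp in the same hearts (r = 0.932), and Bhlhe41 had r = 0.678 without passing, so values with this index are no independent support for a difference in Dbp. It gave -0.37 for Dbp and -0.29 for Nr1d1 in MI versus Sham, and in MI + UA versus Sham -0.93 for Dbp (standard error 0.23, edgeR adjusted p = 0.0134) and -0.64 for Nr1d1 (standard error 0.20, edgeR adjusted p = 0.0532). Both indices hold Npas2, which was itself higher in MI than in Sham (26.5 ± 3.81 against 18.05 ± 4.84 CPM, SD, n = 4, log2 fold change 0.55, standard error 0.19, edgeR adjusted p = 0.0743). A shift of phase with infarction and a difference in the hour of collection cannot be told apart with these hearts.

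Between the groups, 1 of the 16 tested loop genes outside the 10 changed in MI versus Sham, and it rose, against the 11.4% of all tested genes given above. This was Arntl2, a paralogue of Arntl, whose mean CPM ± SD (n = 4 each) was 0.72 ± 0.34 for Sham, 1.96 ± 0.79 for MI and 1.47 ± 0.22 for MI + UA. It rose by 1.502 on the log2 scale (standard error 0.40, edgeR adjusted p = 0.0163), on 3 to 29 reads per heart. Arntl itself had 18.4 ± 4.49 CPM in Sham, 21.7 ± 3.28 CPM in MI and 18.6 ± 4.36 CPM in MI + UA (SD, n = 4 each), and its log2 fold change was 0.24 in MI versus Sham (standard error 0.17, edgeR adjusted p = 0.437). Rora, the activator that competes with the REV-ERBs for the same site, had log2 fold changes of 0.0090 in MI versus Sham and 0.25 in MI + UA versus MI. For Ciart, Nfil3, Hlf, Bhlhe40 and Bhlhe41 the log2 fold changes in MI versus Sham were -0.036, -0.29, -0.36, -0.11 and 0.38, none with an adjusted p under 0.05. In MI + UA versus MI and in MI + UA versus Sham 0 of the 16 changed in edgeR, with 2 and 3 at an unadjusted p under 0.05 (against 3.79% and 21.8% of all tested genes), and DESeq2 called 1 in MI versus Sham and 0 in the other comparisons.

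Several genes known to be under clock control in the heart fell with infarction. Of 8 such genes, all tested, 4 fell in MI versus Sham and 0 rose (DESeq2 called 3), against 5.53% of all tested genes that fell and 5.82% that rose. The median log2 fold change was -0.51, beside 0.026 over all tested genes. The 4 that fell were Kcnip2, a subunit of the transient outward potassium channel (log2 fold change -0.54, standard error 0.11, edgeR adjusted p = 0.00273), Usp2, a deubiquitinase (-0.64, standard error 0.14, adjusted p = 0.00385), Nampt, which makes the NAD+ precursor NMN (-0.36, standard error 0.096, adjusted p = 0.0172), and Pdk4, which holds back glucose oxidation (-0.80, standard error 0.25, adjusted p = 0.0448). The groups were free of overlap for these 4 genes, as for 15.7% of all tested genes. In MI + UA versus Sham, Kcnip2 (-0.45), Nampt (-0.35) and Pdk4 (-1.03) fell and Pik3r1, a subunit of PI3 kinase, rose (0.35, edgeR adjusted p = 0.0240), against 9.44% of all tested genes called in that comparison. Between MI + UA and MI 0 of 8 changed in edgeR or DESeq2. There 1 (Usp2, log2 fold change 0.35) had an unadjusted p under 0.05, against 3.79% of all tested genes. The relations of these genes with Dbp were chosen after the values had been seen. Within groups, Klf15 (r = 0.794, permutation p = 0.00285, adjusted over 8 genes 0.0192, rho 0.797, permutation p = 0.00498, adjusted 0.0398) and Kcnip2 (r = 0.714, permutation p = 0.00479, adjusted 0.0192, rho 0.566, permutation p = 0.0457, adjusted 0.183) went with Dbp, and the other 6 did not pass. Without rats 58 and 32, r was 0.736 for Klf15 and 0.621 for Kcnip2, and without rats 12 and 58 it was 0.810 and 0.536. Of the 4 that fell, Usp2 (r = -0.065), Nampt (r = 0.044) and Pdk4 (r = -0.509) were among those that did not pass with Dbp. Kcnip2 is made by cardiomyocytes, whose summed markers fell with infarction as given above. The cardiomyocyte markers had a median log2 fold change of -0.41 in MI versus Sham, with 6 of 7 called lower. What part cell make-up has in the fall of these 4 genes was not tested.

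Per1, a direct target of the glucocorticoid receptor, was set beside other glucocorticoid-response genes. Of 6 tested glucocorticoid-response genes (8 listed), 1 rose in MI versus Sham, Errfi1, a feedback inhibitor of EGF receptors, from 26.2 ± 5.91 to 53.3 ± 19.9 CPM (SD, n = 4), with 0.998 as its log2 fold change (standard error 0.26, edgeR adjusted p = 0.0156). DESeq2 also called 1. Of all tested genes 11.4% were called in that comparison, 5.82% as higher, so 1 call among 6 is near the background. Leaving the threshold aside, 6 of the 6 pointed upward and 0 downward. The middle of their log2 values was 0.44, beside 0.026 for the tested genes as a whole. An unadjusted p under 0.05 was reached by 3 of the 6 in edgeR, against 23.9% of all tested genes. Whether the list shifted as a set was not tested. In MI + UA versus MI and in MI + UA versus Sham 0 of 6 changed in edgeR or DESeq2, with 2 and 1 at an unadjusted p under 0.05 (3.79% and 21.8% of all tested genes). The relations with Per1 were chosen after the values had been seen. Over the 12 hearts, group means subtracted, Per1 went with Klf9 (r = 0.7997, permutation p = 0.0181, rho 0.622, permutation p = 0.0423), Errfi1 (r = 0.768, permutation p = 0.0131, rho 0.804, permutation p = 0.00737), Ddit4 (r = 0.733, permutation p = 0.0261, rho 0.608, permutation p = 0.0701) and Sgk1 (r = 0.701, permutation p = 0.0248, rho 0.636, permutation p = 0.0608). Adjusted over 7 relations, p was 0.0457 for each of these 4 r values, and 0.0516 to 0.123 for their rho values, so only the linear measure passed. Without the hearts farthest from the median of Per1 once group means were subtracted, rats 36 and 17, r was 0.8292 for Errfi1 but fell to 0.439 for Sgk1, 0.303 for Ddit4 and 0.227 for Klf9, so the last 3 relations rested on those hearts. Without the hearts farthest in level, rats 17 and 61, r was 0.912, 0.757, 0.805 and 0.711 in the same order. Per2 did not pass with Per1 (r = 0.485, permutation p = 0.227, adjusted 0.227, rho 0.259, permutation p = 0.449).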

How the data were processed

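The deposited files hold raw counts: per the labels and the methods, the authors sequenced ribosomal RNA-depleted libraries as read pairs, mapped them with STAR 2.6.1c to mRatBN7.2 and counted reads per Ensembl gene with HTSeq, with no normalization. The labels name the RNA as polyA, and 1 MI + UA library that the study set aside was not analysed here. The 5 summary lines of each count file were left out of library sizes. Between 42.9% and 48.3% of counted reads fell on genes, 6228706 to 19031695 per library. Each library is a separate rat, and 0 columns were left unused.

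From these counts, genes with at least 10 reads in total were tested with edgeR 4.0.16 (R 4.3.3; TMM normalization, quasi-likelihood test, the 3 groups in one fit with 9 residual degrees of freedom, Benjamini-Hochberg adjustment over all tested genes, threshold 0.05). The standard error is the size of the log2 fold change divided by the square root of F. CPM used TMM factors, and log2 CPM a prior count of 1. Correlations used log2 CPM minus its group mean, with two-sided tests of 100000 permutations of hearts within groups. The named genes were the 10 clock genes, the genes of the clock, clock-controlled and glucocorticoid lists called in any comparison, Arntl, Npas2, Rora, Ciart, Nfil3, Hlf, Bhlhe40 and Bhlhe41 in any case, and the 5 genes with the highest and the 5 with the lowest r with Dbp. 1 gene of this rule is not reported here. Genes named for their relation with Dbp or Per1 beyond these were chosen after their values were seen. The clock genes and all lists were chosen with earlier results of these data known. Alternatives were DESeq2 1.42.0, other normalizations and filters, other sets of rats, rat 66 counted as MI, covariates, and a prior count of 5. The edgeR step was tested on simulated data. Figures used matplotlib 3.10.9. Promoters were read by symbol from a RefSeq table of GRCr8, which is not the assembly the reads were mapped to.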

Additional observations from a re-analysis of the deposited data

Results flagged for a closer look

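Each clock gene, loop gene and library measure was examined in each group of 4 rats for a heart standing apart, by the gap of its lowest or highest value to the nearest heart divided by the range of the group, against Dixon's 95% critical ratio for 4 samples. Of 84 groups examined, 10 were past it, where chance flags about 1 in 20 groups, or 4.2 of 84. Among the clock genes, rat 12 was the lowest Sham heart for Nr1d1 (4.53 log2 CPM, nearest heart 6.30, ratio 0.847), and rat 17 the lowest Sham heart for Per1 (4.52 log2 CPM, nearest heart 5.67, ratio 0.838). For Cry2, rat 32 was the highest Sham heart (5.07 log2 CPM, nearest heart 4.91, ratio 0.840) and rat 58 the lowest MI + UA heart (4.59 log2 CPM, nearest heart 4.76, ratio 0.879), a gene whose whole range was narrow. Among the other loop genes the ratios were 0.947 for Arntl2 (rat 58 highest in MI + UA), 0.925 for Csnk1d (rat 89 highest in MI), 0.861 for Fbxl21 (rat 12 lowest in Sham) and 0.8294 for Timeless (rat 66 lowest in MI + UA). The share of counted reads on genes was lowest in MI for rat 61 (43.3%, nearest heart 44.6%, ratio 0.853) and in MI + UA for rat 58 (42.9%, nearest heart 46.7%, ratio 0.886). Of the hearts named here, rats 12, 61 and 58 were the lowest of their groups for Dbp. The causes were not tested.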

How the results depend on the processing

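No paired analysis was possible because the replicate numbers are rat numbers and each rat belongs to 1 group. Of the recomputed log2 fold changes of the clock genes, 486 kept their direction and their side of the threshold, 14 came past it and 70 changed sign, all of the last without passing. With 4 rats a group, and down to 29 reads for Dbp and 31 for Cry1, small differences could not be resolved. Clock genes called in MI versus Sham numbered 3 with genes of at least 1 read kept, beside 2216 of all 22587 genes. That filter gave 3 of all genes in MI + UA versus MI, none of them a clock gene. The number of clock genes in MI versus Sham was 1 with only the compared groups fitted (2182 of 17136). With single rats left out it was 0 to 2 (2 without rat 12, with 1751 of 18053, and 1 without rat 36, with 1929 of 17938). Against Sham, the MI + UA count was 1 with the second phase index (1709 of all 18182 genes) and 0 to 2 with single rats left out (2 without rat 12, with 1417 of 18053). In an alternative chosen after seeing the data, without rats 12, 61 and 58, 2 clock genes were called in MI versus Sham. They were Nr1d1 (log2 fold change -0.77, edgeR adjusted p = 0.00679) and Dbp (-0.998, edgeR adjusted p = 0.0253), beside 1448 of all 17724 genes. In MI + UA versus Sham 2 were called, Nr1d1 (-0.83, edgeR adjusted p = 0.00588) and Dbp (-0.92, edgeR adjusted p = 0.0416). There 1060 genes of all were called (1716 with all rats). Rats 12, 61 and 58 were the lowest of their groups for both genes. Leaving them out narrows the spread of the genes tested, so these calls are no independent support for a difference. Between MI + UA and MI, 0 to 1 of all genes were called with single rats left out (1 without rat 36), none of them a clock gene. The cause of these changes was not tested.

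Changes of sign were all in values with an adjusted p over 0.05. In MI versus Sham, Clock became -0.0030 without mitochondrially encoded genes in the library sizes, -0.0094 with only the compared groups, -0.081 with the phase index and -0.031 with the second index, and ran from -0.049 to 0.067 with single rats left out. The phase index also turned Per3 (0.074), Cry1 (-0.063) and Nr1d2 (0.023) in that comparison, and Cry1 ran from -0.056 to 0.16 with single rats left out. Per2 in MI + UA versus MI became -0.060 with rat 66 counted as MI and -0.012 with DESeq2. There the phase index gave -0.12 for Per2, -0.0077 for Per3, -0.40 for Nr1d1, -0.21 for Nr1d2, -0.62 for Dbp and -0.0089 for Tef, and the second index -0.052 for Per2, -0.35 for Nr1d1, -0.17 for Nr1d2 and -0.56 for Dbp. With single rats left out, values in MI + UA versus MI ran from -0.30 to 0.26 for Dbp, -0.16 to 0.22 for Nr1d1, -0.074 to 0.18 for Nr1d2, -0.12 to 0.32 for Per2 and -0.0043 to 0.29 for Tef. Per3 in MI + UA versus Sham became -0.023 with the second index, and single rats left out gave -0.19 to 0.031 for Cry1, -0.15 to 0.23 for Per1 and -0.14 to 0.21 for Per3. Without rats 12, 61 and 58, Nr1d1 became -0.061 in MI + UA versus MI, and Per1 -0.015 and Cry1 0.042 in MI + UA versus Sham.

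With the share of reads on genes as a covariate, also added after seeing the data, the number of genes called was 246 in MI versus Sham, 6 in MI + UA versus MI and 870 in MI + UA versus Sham (2064, 0 and 1716 without it). This share did not overlap between Sham and MI, so the covariate and that comparison cannot be told apart. Values in MI versus Sham became -0.20 for Clock, -0.14 for Per1, 0.66 for Per3, -0.086 for Cry1, 0.0050 for Cry2, 0.18 for Nr1d1, 0.39 for Nr1d2, 0.95 for Dbp and 0.22 for Tef. In MI + UA versus MI they became -0.18 for Per2, -0.16 for Per3, -0.38 for Nr1d1, -0.26 for Nr1d2, -1.04 for Dbp and -0.18 for Tef, and in MI + UA versus Sham -0.015 for Clock, -0.30 for Per1, 0.13 for Nr1d2 and 0.039 for Tef.

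The correlations of Nr1d1, Nr1d2 and Per3 with Dbp passed in every fit that left out 1 rat, with a prior count of 5, without rats 58 and 32, without rats 12 and 58 and with the share of reads regressed out. Over the 9 hearts without rats 12, 61 and 58 they were 0.913, 0.938 and 0.706 and did not pass, and Clock (-0.328), Cry1 (-0.585) and Tef (0.353) did not either, while Per1 became 0.178. Without rats 58 and 32, Clock (-0.755), Cry1 (-0.793) and Tef (0.772) did not pass, and Per2 became -0.089 and Cry2 -0.175. Without rats 12 and 58, added after seeing the data, Clock (-0.536) and Tef (0.602) did not pass. With the share regressed out, Clock (-0.481) and Tef (0.482) did not pass and Per2 became -0.086. With single rats left out and group means taken again over the rest, r ran from -0.792 to -0.611 for Clock, from -0.835 to -0.407 for Cry1 and from 0.729 to 0.872 for Tef, and did not pass in 6 of 12 fits for Clock, 7 of 12 for Cry1 and 2 of 12 for Tef. The within-group SD of each clock gene moved by less than its standard error with a prior count of 5.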
